A study of Mus musculus with 3 samples.

Results

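The response of mouse embryonic stem (ES) cells to 6 h of auxin was measured within replicate 1 of a single-cell RNA sequencing study of acute cohesin loss. Its members were the cells of replicate 1 with more than 2600 detected genes, 337 of the 384 wells deposited for this replicate and of 1335 such cells in the 3 replicates of the series. The cells were JM8.N4 mouse ES cells of the C57BL/6N strain in which the cohesin subunit RAD21 had been fused by CRISPR–Cas9 to an auxin-inducible degron, and cells of both conditions carried this fusion. Medium with serum, LIF and the inhibitors PD0325901 (1 µM, against MEK) and CHIR99021 (3 µM, against GSK3) was common to both conditions. The auxin cells were given 500 µM indole-3-acetic acid for 6 h and the control cells were not. Cells were sorted into plates of 96 wells, and the cDNA of a plate was pooled into 1 library. The plates that the labels call RAD21 positive 2 and 3 were read as control plates 2 and 3 (87 and 81 cells), and those called RAD21 negative 2 and 3 as auxin plates 2 and 3 (90 and 79 cells). Values below are given in this order. This reading could not be checked against the source values of the study, so the direction of every difference rests on the labels. No source used here says that plates of a condition came from separate cultures, so the p-values measure only the spread between plates, which may be technical.

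Cohesin is a ring of SMC1, SMC3 and RAD21 that extrudes chromatin into loops, which stop largely at CTCF sites. The degron removes the RAD21 protein and does not act on its mRNA. Mouse ES cells in this medium are held in the naive state of pluripotency by LIF signalling through STAT3, by active β-catenin and by a network of transcription factors that includes Nanog, Esrrb and the Krüppel-like factors Klf2, Klf4 and Klf5. Dkk1 encodes a secreted inhibitor of Wnt signalling and is itself a known target of β-catenin.

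The 4 plates were sequenced in a single instrument run to between 27627792 and 33409911 reads. Summed gene UMIs lay between 8394589 and 10177113 a plate, and the median cell held between 93930 and 118730. Control plate 2 stood apart in the share of its reads assigned to transcripts, 40.4% against 50.4% to 53.5% on the others. Differences between plates of the same condition were about as large as those between conditions. The SD of the log2 difference in CPM (UMIs of a gene per 1000000 gene UMIs of its plate, plus 1) was 0.61 between the control plates and 0.57 between the auxin plates, and it lay between 0.56 and 0.63 for the 4 pairs across conditions. The lowest SD, 0.56, was between control plate 2 and auxin plate 2, so control plate 2 did not stand apart by this measure. Nanog, a marker of ES cells, was found on every plate, at 489 and 502 CPM in control and at 577 and 548 CPM in auxin, and with a Nanog UMI in 98.9% to 100% of cells. Of the 9 listed ES cell markers, Nanog was among the 2 with both auxin plates above both control plates (20.5% of all genes tested). In 5 of the 9 both auxin plates lay below (14.2%), and the median log2 fold change of the list was -0.16. The summed level of the 5 fibroblast markers was between 0.773 and 2.02 CPM. Rad21 mRNA, which the degron does not target, was at 17.6 and 23.7 CPM in control and at 21.2 and 17.1 CPM in auxin. These values overlap, and they check the mRNA only, since the loss of the protein cannot be read from these libraries.

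Did auxin change the level of any gene between the plates? No gene passed an adjusted p of 0.05 in edgeR's quasi-likelihood test over 13583 genes (0% higher and 0% lower). At an unadjusted p under 0.05 this test had 327 genes higher in auxin (2.41% of the genes tested) and 386 lower (2.84%), together 5.25% of the genes tested. Leaving out any single plate, control plate 2 or another, gave edgeR calls, with the lone plate of a condition assumed to vary like the others. DESeq2 on the same sums called 6 genes higher (0.0408% of 14714) and 18 lower (0.122%) at an adjusted p under 0.05. Among the genes it called higher were Gm43409, Dkk1, Cbr3, Zscan4d and Usp17lb. On 23 of these 24 genes, which passed the edgeR filter on low counts, the values of the auxin plates lay outside those of the control plates. Over all genes tested the plates were apart in this way, with auxin higher, for 20.5% and, with auxin lower, for 14.2%. In simulated counts with the spread of these plates, the edgeR test recovered 0.5% of genes changed 1.5-fold, 15.5% of genes changed 2-fold and 60% of genes changed 4-fold, so most changes of up to 2-fold were not detectable with 2 plates a condition. All gene-level differences below are therefore given as values. No edgeR adjusted p was under 0.130, and DESeq2's calls are named.

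Dkk1 (chromosome 19, 30545863 to 30549665, minus strand, GRCm38) was called higher by DESeq2 and was found in many cells. Its 250 bases before the RefSeq start (GRCm38.p6, chr19:30549497-30549746, minus strand) are shown because they hold the TCF/LEF motif CTTTGA, read on either strand and here in capitals, at 2 places.

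Dkk1: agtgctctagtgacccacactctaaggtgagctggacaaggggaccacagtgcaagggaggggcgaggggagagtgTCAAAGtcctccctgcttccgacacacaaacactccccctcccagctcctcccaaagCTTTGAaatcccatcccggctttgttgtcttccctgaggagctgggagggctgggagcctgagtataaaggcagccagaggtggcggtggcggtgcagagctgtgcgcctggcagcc

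This motif is not rare, since 10.4% of the 9441 tested genes with a promoter in this table hold it in the same window, and a match describes the sequence, not binding. Dkk1 was at 11.9 and 14.1 CPM on the control plates and at 69.4 and 43.5 CPM on the auxin plates. Both auxin plates lay above both control plates, by a fitted log2 fold change of 2.06 (SE 0.30, edgeR adjusted p = 0.193), and DESeq2 called it (adjusted p = 3.05e-06). The share of cells with a detected transcript also differed, though at such low counts a higher level per cell would raise it too. With each cell thinned to 40000 UMIs, which left 82, 81, 88 and 77 cells on the 4 plates, a Dkk1 UMI was found in 15.9% (95% Clopper–Pearson interval 8.72 to 25.6) and 12.3% (6.08 to 21.5) of control cells. On the auxin plates it was found in 42.0% (31.6 to 53.1) and 44.2% (32.8 to 55.9). These intervals cover counting error only, and an exact permutation test of 2 plates against 2 cannot go below p = 0.33. Without thinning, the shares were 17.2% and 14.8% in control and 45.6% and 49.4% in auxin. None of the 47 wells that failed the filter, with a median of 324 gene UMIs, held a Dkk1 UMI. At this depth even Klf5 was found in only 2 of the 47, so these wells cannot show a background for Dkk1. The cells that held the transcript had 6.67 and 11.3 UMIs on average in control and 17.2 and 10.1 in auxin, so for the amount per positive cell the plates of the conditions overlapped. In every plate the median cell had no Dkk1 UMI, and the highest cell of a plate held between 10.5% and 24.3% of its Dkk1 UMIs.

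**Figure D1:**
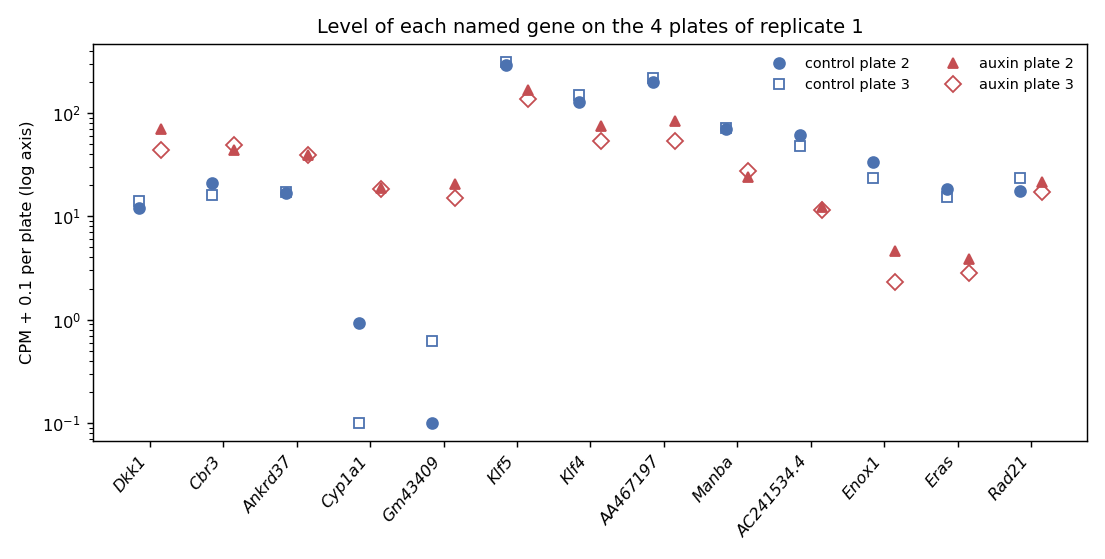
CPM per plate, plus 0.1, on a log axis for 13 of the genes named by the rule on size and p or always named, with control plates in blue and auxin plates in red. Points of a colour are single plates. Dkk1 sits at 11.9 and 14.1 CPM in control and at 69.4 and 43.5 CPM in auxin, while the 4 points of Rad21 overlap.

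Of 21 listed components and targets of the Wnt pathway, 16 were tested and 1 was called higher by DESeq2, Dkk1 itself, beside 0.0408% of all genes. Dkk1 had been chosen in advance, with earlier results of these data known, so this count says nothing about the pathway. Axin2, a negative regulator that is also a β-catenin target, was at 6.55 and 3.22 CPM in control and at 9.43 and 8.84 CPM in auxin (log2 0.87, SE 0.47). The target gene Sp5 was at 18.3 and 11.8 CPM in control and at 17.2 and 18.6 CPM in auxin, which overlap. Cdx1 was at 257 and 395 CPM in control and 369 and 433 CPM in auxin. Ccnd1, which encodes cyclin D1, was at 54.9 and 40.9 CPM in control and at 26.6 and 32.8 CPM in auxin (log2 -0.73, SE 0.24). The receptor gene Fzd7 was at 7.98 and 7.79 CPM in control and at 1.77 and 4.09 CPM in auxin. The median log2 fold change of the list was 0.18 against -0.0036 for all genes tested.

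Nodal, a TGF-β family ligand, was at 115 and 116 CPM in control and at 142 and 183 CPM in auxin. Lefty2, which encodes a Nodal antagonist, was at 395 and 314 CPM in control and at 293 and 263 CPM in auxin, the other way. Lefty1 was at 159 and 105 CPM in control and at 191 and 164 CPM in auxin.

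Id3 and Id1, inhibitors of basic helix-loop-helix factors and targets of BMP signalling, were lower on both auxin plates. Id3 was at 134 and 162 CPM in control and at 71.8 and 56.1 CPM in auxin (log2 -1.26, SE 0.21), and DESeq2 called it (adjusted p = 0.000141). Id1 was at 22.6 and 18.2 CPM in control and at 10.9 and 6.96 CPM in auxin (log2 -1.23, SE 0.34), and it was called by neither tool. Of the 13 listed BMP and Nodal targets, all tested, edgeR called none, and DESeq2 called Id3 lower, beside 0.122% of all genes. Both auxin plates lay above both control plates for 5 of the 13 (20.5% of all genes) and below for 3 (14.2%). The median log2 fold change of the list was 0.20. Id2, at 10 and 36 CPM in control and 25 and 16 CPM in auxin, overlapped between conditions, as did Id4.

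Klf5 and Klf4 were lower on both auxin plates, and both are transcription factors of the naive network. Klf5 was at 292 and 312 CPM in control and at 168 and 137 CPM in auxin, with a log2 fold change of -1.04 (SE 0.17, edgeR adjusted p = 0.266, DESeq2 adjusted p = 0.000141). Klf4 was at 129 and 151 CPM in control and at 74.1 and 53.8 CPM in auxin, with a log2 fold change of -1.18 (SE 0.22, edgeR adjusted p = 0.417, DESeq2 adjusted p = 0.00106). Their plates did not overlap for either gene. The share of cells with a UMI is given beside these levels. A Klf4 UMI was found in 84.1% and 76.5% of thinned control cells and in 61.4% and 59.7% of thinned auxin cells. Klf5 was found in 91.5% and 90.1% of control cells and in 87.5% and 84.4% of auxin cells, a difference of -4.84 percentage points, and without thinning its plates overlapped (90.8% and 92.6% against 95.6% and 86.1%). The median cell held 24 and 27 Klf5 UMIs on the control plates and 14 and 13 on the auxin plates. For Klf4 the median was 9 and 14 UMIs in control and 6.5 and 3 in auxin. At 20000 UMIs a cell, Klf5 was found in 88.5% and 88.9% of control cells and in 83.3% and 75.9% of auxin cells, and Klf4 in 80.5% and 72.8% against 53.3% and 45.6%.

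Of 16 Krüppel-like factors, 14 were tested and DESeq2 called 2, Klf4 and Klf5, both lower, beside 0.122% of all genes. Klf4 and Klf5 had been chosen in advance, with earlier results of these data known, so this count says nothing about the family. Klf2, the third family member of the naive network, was at 281 and 681 CPM in control and at 347 and 555 CPM in auxin. These plates overlap, and the spread between the control plates exceeds the difference between the conditions. Klf3 was at 135 and 196 CPM in control and at 139 and 160 CPM in auxin, and Klf9 and Klf10 had log2 fold changes of -0.14 (SE 0.20) and -0.05 (SE 0.18).

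Of the 15 naive factors listed, all tested, DESeq2 called 3 lower, Klf4, Klf5 and Prdm14, beside 0.122% of all genes, and none higher. Klf4 and Klf5 had been chosen in advance here too. In 6 of them both auxin plates lay below both control plates (14.2% of all genes) and in 4 above (20.5%). Prdm14, a repressor of FGF signalling, was at 116 and 104 CPM in control and at 65.1 and 52.7 CPM in auxin (log2 -0.95, SE 0.19). Dppa3, a maternal factor that protects DNA methylation, was at 55.5 and 57.2 CPM in control and at 16.4 and 34.2 CPM in auxin (log2 -1.20, SE 0.33), and neither tool called it. Esrrb was at 64.2 and 69.1 CPM in control and at 59.6 and 64.1 CPM in auxin. Nanog had a log2 fold change of 0.13 (SE 0.14) and Zfp42 one of 0.10 (SE 0.15). On the higher side were the nuclear receptor genes Nr5a2 (log2 0.72, SE 0.39) and Nr0b1 (0.24, SE 0.21), and Fbxo15 at 260 and 213 CPM in control and 274 and 329 CPM in auxin. The median log2 fold change of the 15 genes was -0.16.

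Of 11 general pluripotency genes, all tested, 6 were lower at an unadjusted edgeR p under 0.05 and none was higher, beside 2.84% lower over all genes. DESeq2 called Utf1, which encodes a chromatin factor of undifferentiated cells. Utf1 was at 34.0 and 25.5 CPM in control and at 9.63 and 8.73 CPM in auxin (log2 -1.73, SE 0.29). Its UMI was found in 50% and 37.0% of thinned control cells and in 15.9% and 13.0% of auxin cells. Lin28a was at 8.46 and 9.56 CPM in control and at 3.24 and 2.65 CPM in auxin. Pou5f1, which encodes OCT4, was at 280 and 267 CPM in control and at 225 and 231 CPM in auxin (log2 -0.31, SE 0.15). Sox2 was at 112 and 192 CPM in control and at 117 and 75.3 CPM in auxin, which overlap. The median of the list was -0.38.

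The remaining genes that DESeq2 called lower were of varied kind. AA467197, also known as Nmes1, was at 199 and 220 CPM in control and at 84.1 and 53.9 CPM in auxin (log2 -1.65, SE 0.23). It was found in 46.3% and 50.6% of thinned control cells and in 39.8% and 45.5% of auxin cells, and at 20000 UMIs a cell in 40.2% and 40.7% against 31.1% and 30.4%. The cells that held it had a median of 15 and 14 UMIs in control and 9.5 and 7.5 in auxin, and the highest cell of a plate held 15.2% to 36.1% of its UMIs. Manba, the lysosomal β-mannosidase, was at 70.6 and 71.2 CPM in control and at 24.0 and 27.6 CPM in auxin (log2 -1.51, SE 0.21). It was found in 57.3% and 58.0% of thinned control cells and in 34.1% and 36.4% of auxin cells. The non-coding AC241534.4 was at 61.6 and 48.2 CPM in control and at 12.1 and 11.5 CPM in auxin (log2 -2.26, SE 0.24, edgeR adjusted p = 0.130), which was the lowest adjusted p of all genes. Enox1, a cell-surface oxidase gene, was at 33.6 and 23.4 CPM in control and at 4.52 and 2.21 CPM in auxin (log2 -3.11, SE 0.41), and it was found in 29.3% and 22.2% of thinned control cells and in 6.82% and 5.19% of auxin cells. Eras, an ES cell-expressed Ras gene on the X chromosome, was at 18.4 and 15.3 CPM in control and at 3.73 and 2.76 CPM in auxin (log2 -2.41, SE 0.39). Ccnd3, which encodes cyclin D3 and was found in 96.1% to 100% of thinned cells on every plate, was at 494 and 468 CPM in control and at 299 and 269 CPM in auxin (log2 -0.81, SE 0.14). Fabp5, Rnd3, Elf3, Epb41l4a, Hmces and Cdc5l had log2 fold changes between -1.63 and -0.85. Inhbb, the activin βB subunit, had 24 and 64 UMIs on the control plates (2.86 and 6.65 CPM) and 1 on each auxin plate. That is 88 in control and 2 in auxin, a ratio per gene UMI of 0.0213 with a counting interval of 0.00254 to 0.0792, and the fitted log2 fold change ran from -8.07 to -4.50 over the alternatives. The control UMIs were in 5 and 11 cells. The interval treats UMIs of a cell as independent and leaves out the spread between plates, so it is too narrow.

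**Figure D2:**
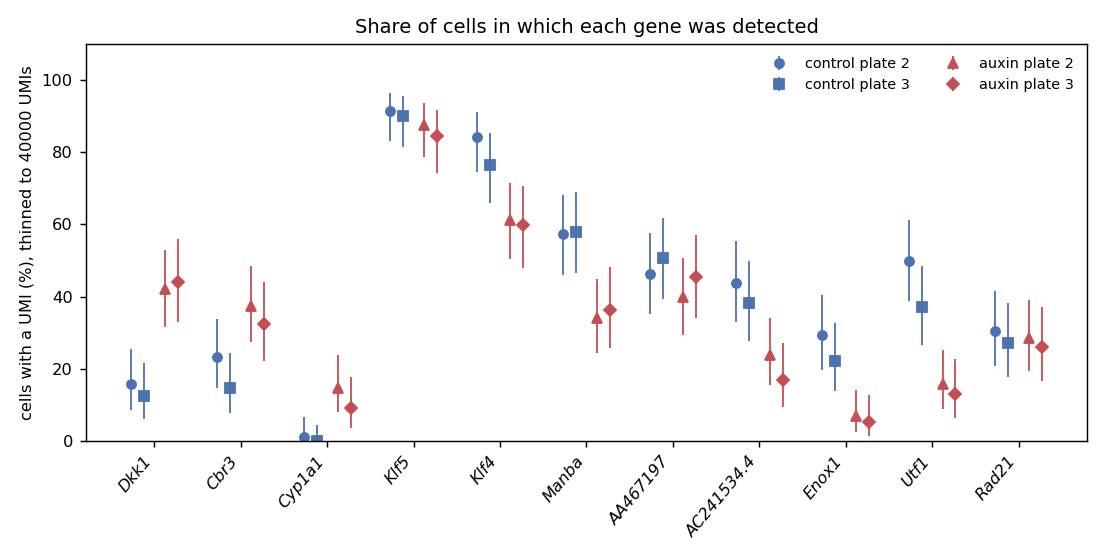
Percent of cells with at least 1 UMI of each gene after thinning to 40000 UMIs, per plate, with 95% Clopper–Pearson intervals (counting error only); control plates are blue and auxin plates red. Dkk1 was found in 15.9% and 12.3% of control cells and in 42.0% and 44.2% of auxin cells, whereas the 4 intervals of Klf5, of AA467197 and of Rad21 overlap.

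Cyp1a1, a cytochrome P450 and the classic target of the aryl hydrocarbon receptor (AhR), was nearly absent from control cells and present in a minority of auxin cells. The 250 bases before its RefSeq start (GRCm38.p6, chr9:57697363-57697612, plus strand) are shown with the AhR core GCGTG, read on either strand, in capitals. This motif was added after the values were seen.

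Cyp1a1: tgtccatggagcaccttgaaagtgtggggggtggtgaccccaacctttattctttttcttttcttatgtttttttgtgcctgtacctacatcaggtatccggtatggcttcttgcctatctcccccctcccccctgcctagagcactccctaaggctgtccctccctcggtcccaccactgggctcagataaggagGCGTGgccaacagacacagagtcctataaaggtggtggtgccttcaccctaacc

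The core is found 1 time here, and 46.5% of promoters of tested genes hold it. Cyp1a1 had 7 UMIs on control plate 2, all in 1 cell, and 0 in the 81 cells of control plate 3, which allows a share of cells with a UMI of up to 3.70% (3 of 81). On the auxin plates it had 192 and 167 UMIs, or 18.9 and 18.4 CPM, in 17 of 90 and 9 of 79 cells. The fitted log2 fold change was 5.47 (SE 0.81, edgeR adjusted p = 0.204), and DESeq2 did not call it (adjusted p = 0.380). After thinning, the share was 1.22% and 0% in control and 14.8% (8.11 to 23.9) and 9.09% (3.73 to 17.8) in auxin. None of the 47 failed wells held a Cyp1a1 UMI, but their depth is too low to show a background. Ahrr, the repressor of AhR, had 2 and 0 UMIs in control and 37 and 15 in auxin, and 1 failed well held a UMI of it. Of the auxin cells with a Cyp1a1 UMI after thinning, 4 of 13 on auxin plate 2 and 1 of 7 on auxin plate 3 also held Ahrr, against 2.67% and 2.86% of the other cells. Of the 9 listed AhR genes, 6 were tested, with a median log2 fold change of 1.31. Both auxin plates lay above both control plates for 4 of them (20.5% of all genes), Cyp1a1 and Ahrr included, and below for 1 (14.2%). Arnt was at 10.6 and 11.95 CPM in control and 15.7 and 17.7 CPM in auxin. Tiparp was at 14.1 and 15.0 CPM in control and 12.1 and 8.95 CPM in auxin, Nqo1 at 77.3 and 90.2 CPM and 98.3 and 104 CPM, and Cyp1b1 at 1.19 and 0.104 CPM and 0.491 and 5.19 CPM. Dkk1 and Cyp1a1 were seen together in 8 auxin cells of auxin plate 2 and in 2 of auxin plate 3. On auxin plate 2, Cyp1a1 was found in 21.6% of thinned cells with Dkk1 and in 9.80% of the others. On auxin plate 3 these shares were 5.88% and 11.6%, the other way.

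Cbr3, a carbonyl reductase gene, was at 20.7 and 15.9 CPM in control and at 44.0 and 48.7 CPM in auxin (log2 1.30, SE 0.24), and DESeq2 called it. Ankrd37, a gene known to respond to hypoxia, was at 16.7 and 16.9 CPM in control and at 38.8 CPM on both auxin plates (log2 1.16, SE 0.24, edgeR adjusted p = 0.588). Of the 19 glycolysis and hypoxia genes, 18 were tested and none was called by either tool. Bnip3 was at 9.29 and 10.3 CPM in control and at 17.7 and 18.2 CPM in auxin, whereas the glucose transporter gene Slc2a1 was at 46.3 and 62.5 CPM and at 35.1 and 33.9 CPM.

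Several of the largest differences rested on single cells. The lincRNA Gm43409 had 5 UMIs in control and 210 and 136 in auxin, but 130 of the 210 and 132 of the 136 were in 1 cell each. It was found in 5 of 90 and 4 of 79 auxin cells. Zscan4d, a marker of the 2-cell-like state, had 0 UMIs among 18021566 in control and 166 in auxin, at least 51.8-fold more per UMI against a floor of 3 UMIs over the control plates. Of its UMIs on auxin plate 2, 142 of 143 were in 1 cell. That cell also held 86 of Zscan4c, 81 of Usp17lb, 271 of Gm8300 and 11 of Tcstv3, and 12 of Pou5f1. On auxin plate 3 it was found in 2 cells, and no control cell of 168 held a UMI of it, which allows a share of cells with a UMI of up to 1.79% (3 of 168). Of the 47 failed wells, 1 held a Zscan4d UMI. Usp17lb, which DESeq2 called as well, was found in 1 cell on each auxin plate. On control plate 3, 1 cell held 2194 of the 2293 Krt18 UMIs of the plate, with 725 of Krt8, 63 of Gata3, 3 of Cdx2, 0 of Pou5f1 and 1 of Nanog. Krt18 had a log2 fold change of -3.69 (SE 0.80), while a UMI of it was found in 17.2% and 14.8% of control cells and in 11.1% and 10.1% of auxin cells. On control plate 2, 1 cell held 7860 of the 8035 Mir6236 UMIs. In all, 57 genes had more than 50% of at least 100 UMIs of a plate in 1 cell. With the highest cell of each gene and plate left out, an alternative chosen after seeing the data, edgeR called Cyp1a1 higher and AC241534.4, Enox1, AA467197 and Eras lower. Gm43409 and Zscan4d then fell below the filter on low counts.

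Cell cycle phases were called per cell. By the cyclone classifier, 32.2% (95% Clopper–Pearson interval 22.6 to 43.1) and 42.0% (31.1 to 53.5) of control cells were in G1, against 17.8% (10.5 to 27.3) and 15.2% (8.10 to 25.0) of auxin cells. The share in G2/M was 37.9% (27.7 to 49.0) and 35.8% (25.5 to 47.2) in control and 45.6% (35.0 to 56.4) and 54.4% (42.8 to 65.7) in auxin, with overlapping intervals. The share in S was 29.9%, 22.2%, 36.7% and 30.4% on the 4 plates, whose intervals overlap too. For G1 the interval of control plate 2 overlaps those of both auxin plates, and that of control plate 3 does not. Among 15 G2/M genes, 7 had both auxin plates above both control plates (20.5% of all genes) and 1 the reverse (14.2%), with a median log2 fold change of 0.20. In cells called G2/M alone, the log2 fold change was 2.36 for Dkk1, -1.33 for Klf4, -1.06 for Klf5 and -1.57 for Manba, and edgeR called no gene. Dkk1 was found in 20.8% and 17.6% of control and 62.5% and 45.5% of auxin cells in G1, and in 15.6% and 6.90% of control and 47.5% and 45.2% of auxin cells in G2/M. Each of these shares is over 11 to 42 cells.

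The remaining lists gave few calls. Of the 27 lists, none had a member called by edgeR and 7 had a member called by DESeq2. In the list of cohesin subunits, loaders, release factors and CTCF, 15 of 15 genes were tested, none had an unadjusted p under 0.05, and the median log2 fold change was 0.0026. Smc1a, Smc3 and Ctcf had log2 fold changes of -0.23 (SE 0.22), -0.14 (SE 0.19) and -0.10 (SE 0.24). Of the 10 LIF and STAT3 genes, 1 was lower at an unadjusted p under 0.05, Junb, beside 2.84% of all genes, and Socs3, a direct STAT3 target, had a log2 fold change of -0.0042 (SE 0.24). Among FGF and ERK genes, Fgf4 was at 117 and 152 CPM in control and at 199 and 279 CPM in auxin (log2 0.78, SE 0.22), and 2 of the 10 tested, Spry4 and Etv4, were lower at an unadjusted p under 0.05 (2.84% of all genes). Of 17 p53 targets tested, Btg2, Pmaip1, Plk2 and Cdkn1a were lower at this threshold, beside 2.84% of all genes, and none was higher. Cdkn1a, which encodes the cell cycle inhibitor p21, was at 362 and 322 CPM in control and 257 and 286 CPM in auxin. The 13 integrated stress response genes tested had 8 members with both auxin plates higher (background 20.5%), none at an unadjusted p under 0.05 and a median of 0.21, and the 11 heat shock chaperones had a median of -0.10. Mt2, a metallothionein gene, had a log2 fold change of -0.57 (SE 0.21). Immediate early, G1/S and Myc family genes had medians of -0.07, -0.01 and 0.02, and the formative and primed genes, 7 of 11 tested, one of -0.36. Of the 10 mitochondrially encoded genes tested, none was called by either tool (median -0.15). Markers of other cell types lay in both directions. Of the 3 neural markers tested, Sox1 was at 24.3 and 29.0 CPM in control and at 11.6 and 9.94 CPM in auxin, whereas Nes was at 6.67 and 3.43 CPM and 14.6 and 7.84 CPM and Pax6 at 0.357 and 0.415 CPM and 1.18 and 1.88 CPM (list median 1.12). Of the 3 mesendoderm markers tested, Eomes was at 12.2 and 25.0 CPM in control and at 7.76 and 8.73 CPM in auxin, whereas Gsc was at 12.3 and 11.3 CPM and 20.8 and 15.7 CPM, and Mixl1 at 1.19 and 0.935 CPM and 1.67 and 3.65 CPM (list median 0.58). The 6 primitive endoderm markers summed to between 7.18 and 12.3 CPM and the 4 trophoblast markers to between 1.99 and 13.3 CPM, the latter highest on control plate 3. The 5 markers of the 2-cell-like state summed to 1.07 and 0 CPM in control and to 23.9 and 3.20 CPM in auxin.

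The positions of these genes were compared next. Of the 713 genes at an unadjusted p under 0.05, 15.3% had another of them within 100 kb, against 16.7% of all 13573 tested genes with a position, and of the 23 genes called by DESeq2 and tested by edgeR, 0 lay within 100 kb of another, against 0.464% of all tested genes within 100 kb of one of them. Pibf1, beside Klf5, had a log2 fold change of -0.22 (SE 0.29), and Dnajc15, beside Enox1, one of -0.20 (SE 0.16). Near Manba, Ube2d3 was at -0.11 (SE 0.15) and Slc9b1 at -0.43 (SE 0.32). The 5 tested neighbours of Cyp1a1 had log2 fold changes between -0.66 and 0.35. Promoter motifs were counted in the genes with unadjusted p under 0.05 and in all tested genes, with no test. CTTTGA was found in 8.09% of the 235 higher genes, 9.40% of the 266 lower genes and 10.4% of all, the STAT motif TTCNNNGAA in 8.94%, 5.64% and 5.74%, and the SP/KLF motif GGGCGG in 59.1%, 60.5% and 60.1%. The KLF motif CACCC was found in 52.8%, 61.3% and 56.8%, and CCCTC, the core of the CTCF motif, in 68.9%, 76.3% and 69.8%. The AhR core GCGTG was found in 38.7%, 48.1% and 46.5%. The RefSeq window of Klf4 held neither the STAT motif nor CACCC, and that of Klf5 was not used here.

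The same genes were then read in replicates 2 and 3, whose values the rule on named genes did not use. Replicate 2 had 8 plates, 4 a condition, and edgeR called 456 genes higher (2.79% of 16349) and 432 lower (2.64%). Over the 12151 genes tested in both replicates, 53.6% had the same direction. Of the 19 genes that DESeq2 called in replicate 1 and that were tested in replicate 2, 14 had the same direction, and edgeR called 8 of them the same way and 1 the opposite way. Klf5 was lower in replicate 2 (log2 -1.50, SE 0.29, edgeR adjusted p = 0.0106), as were Manba (-0.89, SE 0.15), AC241534.4 (-1.31, SE 0.22), Ccnd3 (-0.48, SE 0.09) and Prdm14 (-1.46, SE 0.38). The 5 of the 19 with the opposite direction were Rnd3, described with the interaction test, Id3 at 0.37 (SE 0.24), Fabp5 at 0.57 (SE 0.30), AA467197 at 0.19 (SE 0.80) and Hmces at 0.16 (SE 0.15). Ankrd37, which DESeq2 did not call, was at -0.14 (SE 0.20). Klf4 had a log2 fold change of -1.29 (SE 0.78, edgeR adjusted p = 0.390) at a control median of 2.41 CPM. Dkk1 had at most 2.99 CPM on any plate of replicate 2 and fell below the filter, as did Cyp1a1, whose highest plate had 2.16 CPM. In the fit over the 12 plates of replicates 1 and 2, the replicate 2 log2 fold change was 2.54 for Dkk1 (SE 1.21, edgeR adjusted p = 0.349) and 2.92 for Cyp1a1 (SE 1.09, edgeR adjusted p = 0.204). The control level of several genes itself differed between the replicates, and 304 genes with at least 100 UMIs in replicate 1, Sox1 and Sox2 among them, had none in replicates 2 and 3. Gm43409 also had none there. The reverse held for 6 genes of replicate 2 and 0 of replicate 3, so levels cannot be compared across replicates for such genes.

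In 4 genes called by DESeq2 the difference itself differed between replicates 1 and 2 by the edgeR interaction test over 12 plates, which called 71 of 19781 genes (0.359%). The difference in log2 fold change, replicate 2 minus replicate 1, was 2.39 for Enox1 (SE 0.37, adjusted p = 0.0112), 1.74 for Eras (SE 0.34, adjusted p = 0.0456), 1.62 for Utf1 (SE 0.22, adjusted p = 0.00566) and 1.72 for Rnd3 (SE 0.22, adjusted p = 0.00566). Enox1 and Eras were lower in replicate 2 too, at -0.70 (SE 0.15) and -0.66 (SE 0.17). Utf1 was at -0.10 (SE 0.10) there, and Rnd3 was higher, at 0.53 (SE 0.12, edgeR adjusted p = 0.0261). Of the 267 list members in this test, 14 were called, 5 of them p53 targets. Plk2 had the lowest adjusted p of these, with a difference of 2.56 (SE 0.23, adjusted p = 0.000311), from -0.63 (SE 0.27) in replicate 1 to 1.94 (SE 0.13) in replicate 2. Cdkn1a and Btg2 went from -0.38 and -0.98 to 0.83 and 1.14. Fgf4 went the other way, from 0.78 to -1.02.

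In replicate 3, 2 of the 4 plates are placed differently by the deposited labels and by the source values of the study, so the control plate and the auxin plate on which both sources place the cells alike were compared without a test. Dkk1 was at 9.07 and 53.4 CPM on these plates and Cyp1a1 at 0.165 and 21.4 CPM. Klf5 was at 304 and 127 CPM, Klf4 at 72.7 and 27.5 CPM, Manba at 107 and 41.4 CPM, Utf1 at 52.1 and 11.96 CPM and Rnd3 at 79.8 and 22.1 CPM. Rad21 was at 42.4 and 45.2 CPM. The other 2 plates, in the order of their deposited labels (control, auxin), had Dkk1 at 17.8 and 52.8 CPM, Cyp1a1 at 0.265 and 36.2 CPM, Klf5 at 282 and 115 CPM, Manba at 113 and 48.8 CPM and Rnd3 at 84.9 and 22.5 CPM. By these levels each lay nearer to the plate of its own deposited label, but the levels were not used to place the plates. By the deposited labels of all 4 plates, edgeR called 8 genes higher (0.0539% of 14854) and 16 lower (0.108%), and all 20 genes called by DESeq2 in replicate 1 and tested there had the direction of replicate 1, with 12 of them called, beside 56.5% of all 11995 genes tested in both. With the plates placed as in the source values, the log2 fold change was 0.20 (SE 0.69) for Dkk1, -0.01 (SE 0.42) for Klf5, -0.07 (SE 0.43) for Klf4, 0.01 (SE 0.44) for Manba and 0.09 (SE 0.61) for Rnd3, and no edgeR adjusted p of the named genes was under 0.05. The count of 20 genes of like direction therefore rests on the deposited labels.

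**Figure D3:**
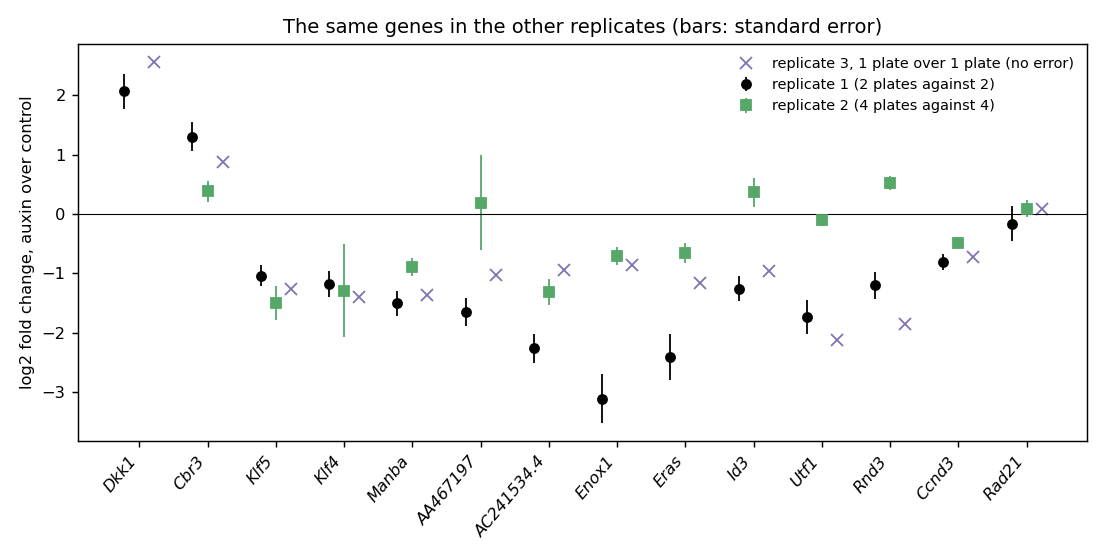
Log2 fold change of auxin over control for 14 genes in replicate 1 (black, 2 plates against 2) and replicate 2 (green, 4 against 4), each with its standard error from edgeR, and the log2 ratio of 1 auxin plate over 1 control plate in replicate 3 (crosses, no error). Klf5 lies at -1.04, -1.50 and -1.26, whereas Rnd3 lies at -1.20, 0.53 and -1.85, and Dkk1 fell below the filter in replicate 2 fitted alone and has no green point.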

How the data were processed

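Smart-SCRB libraries of 3 replicates were deposited by the authors as whole-number UMI counts per gene and well, aligned to mm10 and neither normalized nor filtered. The aligner, counter and gene annotation are not given in the sources used here. The tables held 52636 genes, 92 ERCC spike-ins and 11 transgene rows, and only the genes entered tests. The authors also deposited, per well, the percent of UMIs in spike-ins and, per plate, the saturation as a fraction of reads (0.283 to 0.314 in replicate 1) and the fraction of reads assigned to transcripts. Replicate 1 totals per plate are given above, and intervals cover counting error only.

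Wells passed with over 2600 detected genes, the cut-off of the study, and their counts were summed per plate. Conditions came from the deposited plate labels. The main test was edgeR 4.0.16 (quasi-likelihood, TMM, filterByExpr, Benjamini–Hochberg adjustment over all genes tested) in R 4.3.3, with condition as the sole term, and DESeq2 1.42.0 was an alternative. Phases came from cyclone in scran 1.30.0 (667 of 667 marker genes found). Shares of cells used 40000 UMIs a cell, drawn without replacement, and shallower cells were left out (5 and 0 on control plates 2 and 3, 2 on each auxin plate). The tests were checked on simulated counts. Positions came from GENCODE M21 (GRCm38) and promoters from RefSeq (GRCm38.p6).

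The members, lists and tests were chosen with earlier results of these data known. Named genes were, since none passed the threshold, the 6 with the smallest unadjusted p in each direction with at least 10 CPM in a condition and plates that did not overlap, then Dkk1, Klf4, Klf5 and Rad21, and up to 4 members a list. The genes called by DESeq2, and others of the lists, of single cells and of the AhR group, were named after their values were seen. A gene among these is not reported here. The replicate numbers in the plate labels were not taken as pairs, since the correlation of the deviations of same-numbered plates was 0.0817 and nothing ties them to a culture.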

Additional observations from a re-analysis of the deposited data

Results flagged for a closer look

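The auxin difference of 18 genes was not alike in replicates 1 and 2 by the edgeR interaction test over 12 plates, among the genes named by the rule, those called by DESeq2, the list members and Krt18. Differences are log2 fold changes, replicate 2 minus replicate 1. Of the genes called by DESeq2, Enox1 differed by 2.39, Eras by 1.74, Utf1 by 1.62 and Rnd3 by 1.72. Enox1 and Eras were lower in auxin in both replicates, Utf1 was at -1.73 in replicate 1 and -0.10 in replicate 2, and Rnd3 went from -1.20 to 0.53. The control medians of replicate 2 were 124, 42.6, 174 and 24.4 CPM for the 4 genes, against control means of 28.5, 16.8, 29.7 and 72.3 CPM in replicate 1. Whether the unlike control levels bear on the difference was not tested.

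Among p53 targets, Cdkn1a differed by 1.19, Mdm2 by 1.35, Trp53inp1 by 1.59, Btg2 by 2.11 and Plk2 by 2.56, all higher in replicate 2. The integrated stress response genes Atf4 and Mthfd2 differed by -1.06 and -1.24, and the chaperone gene Dnajb1 by 1.28. The general pluripotency genes Lin28a and Dppa5a differed by 1.64 and -0.64, the Wnt pathway gene Tcf7 by -5.23, Fgf4 by -1.81 and the immediate early gene Jun by 2.89. Krt18, whose UMIs on control plate 3 were mostly in 1 cell, differed by 4.81.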

How the results depend on the processing

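The absence of edgeR calls rested on the processing. Against 0 genes higher and 0 lower, DESeq2 called 6 and 18, and edgeR without the filter on low counts 31 and 67 of 30820 genes. ERCC scaling, which moved the median of all genes to 0.26 on the log2 scale, gave 3 and 0, cells thinned to 40000 UMIs gave 1 and 1, and leaving out the highest cell of each gene and plate, added after seeing the data, gave 1 and 4. Leaving out a plate gave 0 to 5 genes higher and 0 to 7 lower: 2 and 7 without control plate 2, 2 and 5 without control plate 3, 0 and 3 without auxin plate 2, and 5 and 0 without auxin plate 3, where the lone plate is assumed to vary like the others. Median-of-ratios size factors, over 4000 detected genes, all wells and G2/M cells alone gave 0 and 0. With the number in the plate labels as a replicate block, also added after seeing the data, edgeR called 0 higher and 2 lower (AC241534.4 and Enox1), and with the barcode set as a block, added after seeing the data, 0 and 0. At an unadjusted p under 0.05 the counts were 327 and 386 in the main test and 764 and 133 with ERCC scaling.

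Apart from Rad21 and from Usp17lb, which was below the edgeR filter and was not followed, the 25 genes named by the rule or called by DESeq2 kept their direction under every alternative that could give a value. Rad21, called under none, was at -0.16 in the main test and at 0.28 in G2/M cells, 0.14 with ERCC scaling and 0.13 without control plate 3. Dkk1 lay between 1.69 and 2.36, Klf5 between -1.19 and -0.76 and Klf4 between -1.43 and -0.89. In replicate 2, Enox1, Eras and Epb41l4a passed the threshold in that replicate alone and not in the fit over 12 plates (adjusted p = 0.0587, 0.0700 and 0.140 by edgeR), whereas Elf3 passed in the latter alone. The causes were not tested.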
